A study of Mus musculus with 8 samples.

Results

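10 genes of the LIF-STAT3 and BMP-ID pathways were followed in mouse embryonic stem cells after shRNA knockdown of the translation initiation helicase eIF4A2. The genes were chosen by name, with earlier results of these data known. For LIF they were the receptor subunits Lifr and Il6st, the transcription factor Stat3 and the feedback inhibitor Socs3. For BMP they were the ligand Bmp4, the receptor Bmpr1a, the signal transducer Smad1 and the targets Id1, Id2 and Id3. All 10 were found in the table of ribosome footprints (12818 genes) and in the table of total RNA (13436 genes), of 13838 genes in either. Footprints are the mRNA fragments that ribosomes shield from nuclease, so they count ribosomes on an mRNA, whereas total RNA counts the mRNA itself.

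The knockdown cells carried shRNAs against eIF4A2 and the control cells carried control shRNAs; the protocol names 2 hairpins for each arm. Each arm has 2 footprint libraries and 2 total RNA libraries, called knockdown 1 and 2 and control 1 and 2. The sources used here do not give which shRNA a library received, or whether footprints and total RNA of the same number came from 1 culture. All groups were the J1 line of strain 129S4/SvJae, feeder-free on gelatin in serum with recombinant LIF, infected on day 0, held in 1 μg/mL puromycin for 3 days and lysed on day 4.5 after 1 min of 0.1 mg/mL cycloheximide, so LIF and serum were present in every group.

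LIF binds a receptor made of the products of Lifr and Il6st. JAK kinases then phosphorylate STAT3, which enters the nucleus and switches on genes that keep stem cells undifferentiated. It also switches on Socs3, whose product shuts the receptor down again. BMP4 signals through receptors such as BMPR1A to SMAD1, which induces the Id genes, and their products block the basic helix-loop-helix factors that drive differentiation. In serum cultures, LIF and the BMP activity of serum together hold mouse stem cells in self-renewal.

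RefSeq promoter windows (GRCm38.p6, not the build of the deposited tables) matched 9 of the 10 genes, all except Id1. The 250 bases before the start of Socs3, Bmp4, Id2 and Id3 are shown, since Socs3 reports on STAT3, Bmp4 had the largest difference of the 10 genes between knockdown and control, and the Id genes are the readout of SMAD1. They lie at chr11:117969367-117969616 (minus strand), chr14:46390670-46390919 (minus strand), chr12:25096093-25096342 (minus strand) and chr4:136143572-136143821 (plus strand). Capitals mark the STAT motif TTCNNNGAA and the motif GGCGCC reported for BMP-responsive SMADs, both of which read the same on either strand, and no marked motif overlaps another.
Socs3: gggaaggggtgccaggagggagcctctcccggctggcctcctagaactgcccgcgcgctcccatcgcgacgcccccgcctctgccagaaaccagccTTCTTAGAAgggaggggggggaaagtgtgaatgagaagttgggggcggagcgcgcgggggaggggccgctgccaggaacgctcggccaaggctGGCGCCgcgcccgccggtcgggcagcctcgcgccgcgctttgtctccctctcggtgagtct
Bmp4: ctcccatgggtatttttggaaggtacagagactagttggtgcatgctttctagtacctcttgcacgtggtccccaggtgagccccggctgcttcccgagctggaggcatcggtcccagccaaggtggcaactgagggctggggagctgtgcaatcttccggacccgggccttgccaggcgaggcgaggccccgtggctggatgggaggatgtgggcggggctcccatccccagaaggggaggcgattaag
Id2: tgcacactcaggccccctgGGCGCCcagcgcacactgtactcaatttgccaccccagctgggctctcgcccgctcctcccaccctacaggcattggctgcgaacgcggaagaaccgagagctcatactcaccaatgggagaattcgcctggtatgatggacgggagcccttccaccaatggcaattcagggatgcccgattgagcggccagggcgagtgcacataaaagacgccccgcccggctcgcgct
Id3: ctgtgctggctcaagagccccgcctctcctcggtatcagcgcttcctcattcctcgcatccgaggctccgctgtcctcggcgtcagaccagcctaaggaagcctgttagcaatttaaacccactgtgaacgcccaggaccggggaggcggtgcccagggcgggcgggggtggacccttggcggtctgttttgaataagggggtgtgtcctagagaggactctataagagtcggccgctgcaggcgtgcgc

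The Socs3 window held 1 STAT motif, which begins 154 bases before the start, and it was the 1 of the 9 genes with that motif. Over 32851 RefSeq promoter windows of the same length 7.02% held it, in 8.13% of 27025 genes, and 9.59% held the SMAD motif. GGCGCC was found in windows of Lifr, Socs3, Bmpr1a and Id2, 4 of 9 genes, where 10.8% of 27025 genes had it in at least 1 window. Of 2 windows of Lifr 1 held it. In Id2 it begins 231 bases before the start. The windows of Bmp4 and Id3 hold neither run of letters. A match is a description of letters and not a measured binding site.

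**Figure D1:**
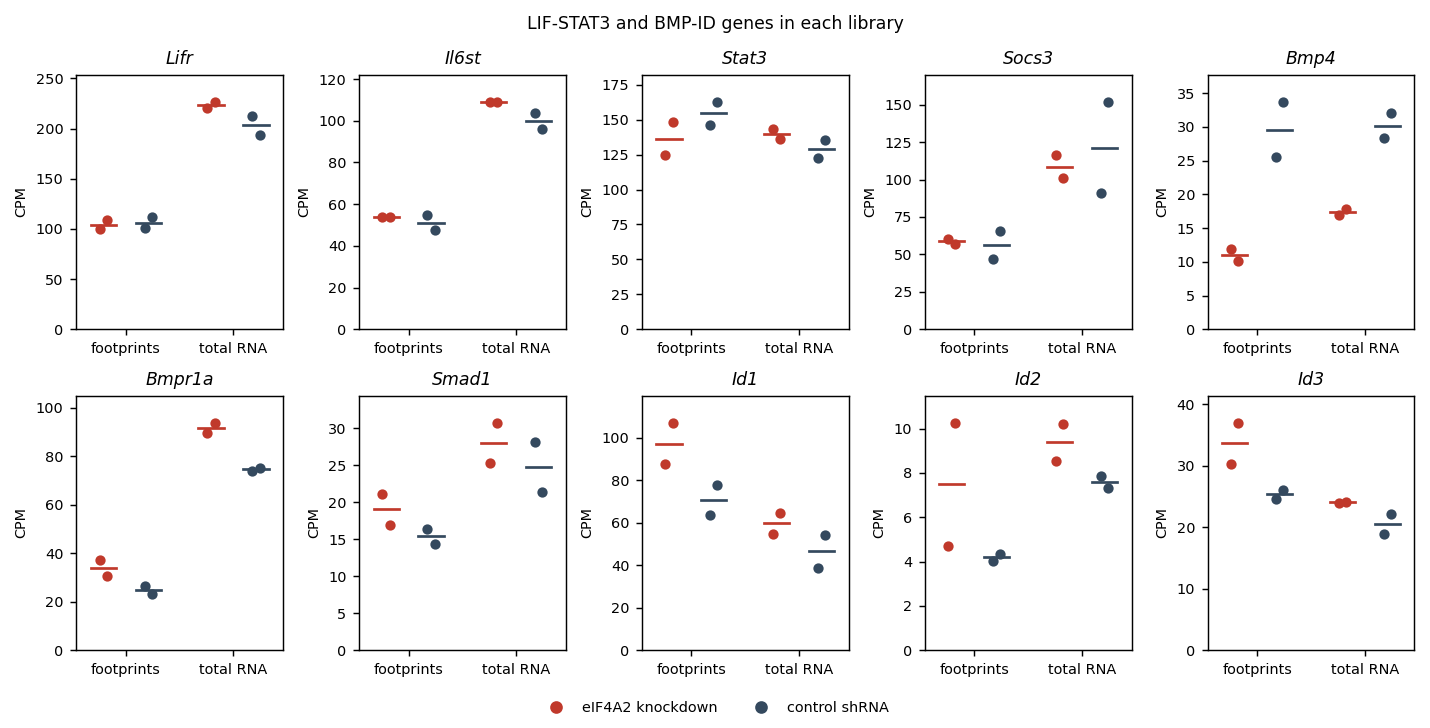
CPM (reads scaled to library size) of the 10 genes in each library, with footprints on the left and total RNA on the right of each panel; points are libraries, red for knockdown and dark for control, and bars are means of 2 libraries. Bmp4 lies lower in both knockdown libraries of both assays (10.1 to 17.9 CPM) than in any control library (25.5 to 33.7 CPM), and Bmpr1a, Id1, Id2 and Id3 lie higher in the knockdown without overlap.

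Bmp4, the BMP ligand of the set, had the largest fold change of the 10 genes. CPM values are reads scaled to library size by the authors. Footprints of Bmp4 were 11.9 and 10.1 CPM in the knockdown libraries, against 25.5 and 33.7 CPM in the control libraries. These values rest on 97 to 340 footprint reads in a library. The knockdown mean was 11.04 ± 1.26 CPM and the control mean 29.6 ± 5.80 CPM (SD, n = 2 libraries each), 37.3% of control. In total RNA Bmp4 had 17.0 and 17.9 CPM in the knockdown libraries and 28.3 and 32.0 CPM in the control libraries, from 215 to 289 reads per library. The knockdown mean was 17.4 ± 0.648 CPM and the control mean 30.2 ± 2.64 CPM (SD, n = 2 each), 57.7% of control. In both assays every knockdown library lay below every control library. In bulk libraries, fewer cells of a type and less RNA per cell cannot be told apart. The summed level of 10 stem cell markers was also lower in the knockdown, at 5493 to 5495 CPM of footprints against 7247 to 7603 CPM in the control, and its part in the Bmp4 difference was not tested. Of these markers 3 of 10 had a positive log2 fold change in each assay, and Zfp42 had much of the summed difference, with footprints of 959 and 820 CPM in the knockdown, against 2027 and 2300 CPM in the control.

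Of all 12723 genes tested in footprints, Bmp4 had the 43rd lowest log2 fold change, at -1.34 ± 0.23 SE (95% interval -1.86 to -0.81), on the log2(CPM + 1) scale of all fold changes given here. It did not pass after Benjamini-Hochberg adjustment by limma (adjusted p = 0.0932), where 0% of genes passed. With all 8 libraries in 1 limma model Bmp4 passed as lower in footprints (adjusted p = 0.0246), among the 0.372% of genes called lower there, and over its 11 alternative settings the adjusted p ran from 0.0246 to 0.672. In total RNA the log2 fold change was -0.76 ± 0.16 (95% interval -1.14 to -0.37, limma adjusted p = 0.128, range over alternatives 4.75e-05 to 0.959), again with 0% of genes past the threshold. In the authors' deposited table Bmp4 is the 1 of the 10 genes with an FDR below 0.05, as lower in footprints (log2 fold change -1.42, FDR 0.000465) and in total RNA (log2 fold change -0.79, FDR 0.0147). At this FDR that table calls 1.68% of footprint genes (0.889% as lower) and 5.4% of total RNA genes (3.19% as lower).

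The 3 Id genes, inhibitors of basic helix-loop-helix factors, lay higher in the knockdown in both assays without overlap, as did the receptor gene Bmpr1a. Id1 footprints were 87.4 and 107 CPM in the knockdown, against 63.5 and 77.8 CPM in the control, so that the knockdown mean was 97.2 ± 13.8 CPM, against a control mean of 70.7 ± 10.1 CPM (SD, n = 2 each). Id1 total RNA was 54.7 and 64.7 CPM in the knockdown, against 38.7 and 54.4 CPM in the control. The total RNA groups were thus apart by under 1 CPM between the lower knockdown and the higher control library. The log2 fold change of Id1 was 0.45 ± 0.18 in footprints (95% interval 0.03 to 0.87, adjusted p = 0.349) and 0.37 ± 0.20 in total RNA (-0.13 to 0.86, adjusted p = 0.458) by limma. In total RNA it was 0.13 without control 1 and 0.61 without control 2.

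Id3 had 30.3 and 36.9 CPM of footprints in the knockdown, against 24.6 and 26.1 CPM in the control. Its total RNA was 24.0 and 24.1 CPM in the knockdown, against 18.8 and 22.2 CPM in the control. For Id3 limma gave a log2 fold change of 0.39 ± 0.20 on the footprint side (adjusted p = 0.448) and of 0.22 ± 0.16 on the RNA side (adjusted p = 0.565). The RNA value of Id3 was 0.11 without control 1 and 0.34 without control 2.

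Id2 had few reads, between 38 and 98 footprint reads per library. Its footprints were 4.73 and 10.3 CPM in the knockdown, against 4.04 and 4.36 CPM in the control, so that knockdown 2 stood well above the other 3 libraries. Its total RNA was 8.52 and 10.2 CPM in the knockdown, against 7.88 and 7.32 CPM in the control. Without knockdown 2 the footprint log2 fold change of Id2 was 0.14, and without knockdown 1 it was 1.11, around a value of 0.63 ± 0.36 with all 4 libraries (limma adjusted p = 0.5). The total RNA value was 0.27 ± 0.19 (adjusted p = 0.551).

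Bmpr1a, which encodes a type I BMP receptor, had footprints of 37.1 and 30.8 CPM in the knockdown, against 26.6 and 23.2 CPM in the control. Its total RNA was 89.4 and 93.7 CPM in the knockdown, against 73.8 and 75.3 CPM in the control. Both assays gave a difference in the direction opposite to the ligand gene Bmp4. By limma its log2 fold change was 0.43 ± 0.20 for footprints (95% interval -0.02 to 0.88, adjusted p = 0.415) and 0.29 ± 0.13 for total RNA (-0.02 to 0.61, adjusted p = 0.362). Smad1, which carries the signal to the nucleus, had footprints of 21.2 and 16.9 CPM in the knockdown, against 16.5 and 14.4 CPM in the control. Its total RNA values overlapped, at 25.3 and 30.7 CPM in the knockdown, against 28.1 and 21.4 CPM in the control, and the log2 fold changes were 0.28 ± 0.22 and 0.18 ± 0.20 (adjusted p = 0.638 and 0.716 by limma).

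The LIF receptor genes differed little between knockdown and control. Lifr, the subunit that binds LIF, had footprints of 99.6 and 109 CPM in the knockdown, against 101 and 112 CPM in the control, and total RNA of 221 and 227 CPM in the knockdown, against 213 and 194 CPM in the control. Il6st, the shared signalling subunit of the interleukin-6 family receptors, had footprints of 53.9 CPM in both knockdown libraries, against 54.7 and 47.6 CPM in the control, and total RNA of 109 CPM in both knockdown libraries, against 104 and 96.3 CPM in the control. Both genes overlapped between groups in footprints and lay higher in the knockdown without overlap in total RNA. By limma the 95% interval of the footprint log2 fold change ran from -0.39 to 0.34 for Lifr and from -0.31 to 0.47 for Il6st (adjusted p = 0.959 and 0.883). In total RNA it ran from -0.18 to 0.46 for Lifr and from -0.19 to 0.44 for Il6st (adjusted p = 0.668 and 0.7). The sign of the Lifr value in footprints turned to 0.09 when the columns were rescaled to a common sum.

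Stat3, the transcription factor that LIF activates, had footprints of 124 and 148 CPM in the knockdown, against 146 and 163 CPM in the control. Its total RNA was 144 and 136 CPM in the knockdown, against 122 and 136 CPM in the control. The footprint groups overlapped, and in total RNA the lower knockdown and the higher control library were almost equal, at 135.9 and 135.7 CPM. The log2 fold changes were -0.18 ± 0.17 in footprints (95% interval -0.56 to 0.20, adjusted p = 0.695) and 0.12 ± 0.13 in total RNA (-0.21 to 0.44, adjusted p = 0.734) by limma. STAT3 is switched on by phosphorylation, which neither assay measures.

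Socs3, the target gene whose window carries the STAT motif above, differed between its own control libraries. Its footprints were 60.5 and 56.9 CPM in the knockdown, against 46.8 and 65.9 CPM in the control, and its total RNA was 116 and 101 CPM in the knockdown, against 90.9 and 152 CPM in the control. In both assays control 1 lay below both knockdown libraries and control 2 above them. The log2 fold change was 0.08 ± 0.20 in footprints (adjusted p = 0.905) and -0.12 ± 0.25 in total RNA (adjusted p = 0.868) by limma. Without total RNA control 1 it was -0.49 (adjusted p = 0.000343), and without total RNA control 2 it was 0.25 (adjusted p = 0.0534), so that its direction depended on which control library was left out.

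**Figure D2:**
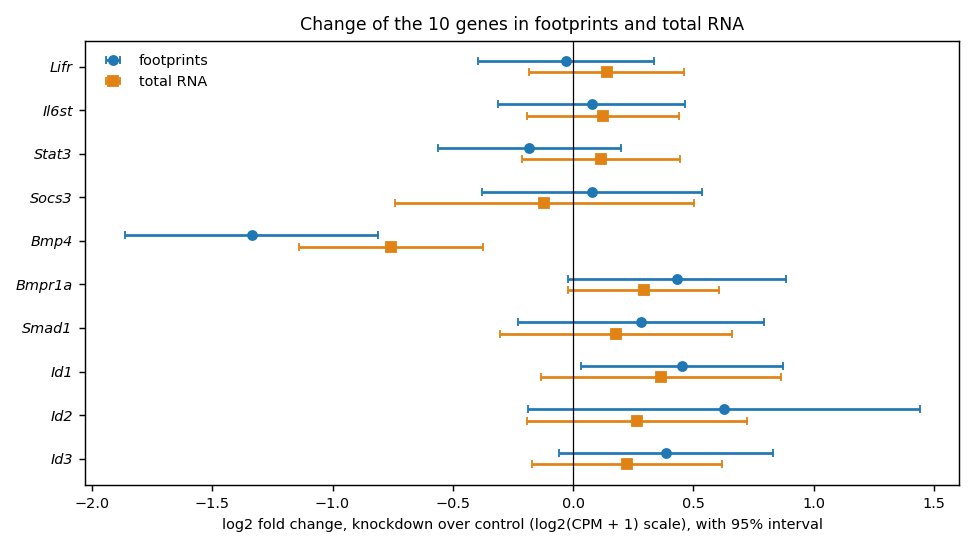
Log2 fold change of knockdown over control for each of the 10 genes on the log2(CPM + 1) scale, circles for footprints and squares for total RNA, with the 95% interval of limma. The intervals of Bmp4 exclude 0 in both assays (-1.86 to -0.81 in footprints and -1.14 to -0.37 in total RNA), and the footprint interval of Id1 does (0.03 to 0.87), before any adjustment for the number of genes.

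The counts that follow only describe the 10 genes, since these were chosen with earlier results of these data known. Counted together, 6 of the 10 genes had footprint groups that did not overlap, namely Bmp4 as lower and Bmpr1a, Smad1, Id1, Id2 and Id3 as higher. Over all genes tested the footprint groups did not overlap in 44.8%, with 22.3% higher and 22.5% lower. In total RNA 8 of the 10 did not overlap, 1 lower (Bmp4) and 7 higher (Lifr, Il6st, Stat3, Bmpr1a, Id1, Id2 and Id3), against 47.9% of all genes, 23.3% higher and 24.6% lower. Bmpr1a, Id1, Id2 and Id3 were higher without overlap in both assays, where 12.3% of the 12358 genes tested in both were, and Bmp4 was lower in both, where 12.4% were. At an unadjusted p below 0.05 limma found 2 of 10 in footprints (Bmp4 and Id1, with 12.9% of all genes) and 1 of 10 in total RNA (Bmp4, with 14.9% of all genes). Log2 fold changes were positive for 7 genes in footprints and 8 in total RNA, with medians of 0.18 and 0.16, where 50.6% and 49.7% of all genes were positive with medians of 0.01 and -0.00. With columns rescaled to a common sum 63.7% of footprint genes were positive, the median of all genes moved by 0.113, and 8 of the 10 genes were positive, Lifr being the one that turned. The signs of Lifr, Il6st and Socs3 in footprints and of Socs3 and Smad1 in total RNA turned when 1 library was left out. With 2 libraries against 2, an exact permutation test of a single gene cannot go below p = 0.333.

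The total RNA calls differed with the control library left out. Without control 1 limma called Lifr, Bmpr1a and Smad1 as higher and Socs3 and Bmp4 as lower, 5 of 10, but 46.1% of all genes were called in that fit. Without control 2 it called Bmpr1a, Id1 and Id3 as higher and Bmp4 as lower, 4 of 10, with 25.4% of all genes called. Bmp4 (adjusted p = 4.75e-05 and 0.00119) and Bmpr1a (0.011 and 0.0119) were called in both fits, Id1 (0.000699) and Id3 (0.0495) without control 2, and Lifr (0.0287) and Smad1 (0.0272) without control 1. These fits rest on 1 control library, which is taken to vary as the knockdown pair does.

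The ratio of footprints to total RNA ran from low for the receptor genes to high for Id1 and Id3 in both arms. Total RNA and footprints were scaled in separate tables, so the ratio was read as a percentile among the 8019 genes with at least 10 CPM in both. The sources used here do not give the feature that the authors counted. No correction for length was made, so a rank between genes is not a measure of how well an mRNA is translated. Bmpr1a ranked low, at the 3.72nd percentile in the knockdown and the 4.38th in the control. Lifr (10.3 and 16.7), Il6st (12.7 and 15.7) and Socs3 (17.2 and 12.5) also ranked low in knockdown and control, while Id1 (94.5 and 90.8) and Id3 (88.8 and 80.1) ranked high. Stat3 stood at 63.6 in the knockdown and 77.9 in the control, and Smad1 at 32.2 in the knockdown and 26.5 in the control.

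Bmp4 had the largest shift in this ratio, at the 26.9th percentile in the knockdown and the 61.9th in the control. With same-numbered libraries set against each other, the knockdown values were the 35.6th and 22.7th percentile, against the 54.1st and 68.8th in the control. These values do not overlap, but neither do those of Stat3, Id1 and Id3. How many of all genes have such values apart was not counted. The change in translational efficiency, which is limma's interaction of assay and knockdown, was -0.58 ± 0.28 for Bmp4 (95% interval -1.21 to 0.05, adjusted p = 1), the 333rd lowest of 12358 genes. It ranged from -0.77 to -0.39 over 13 alternatives. The footprint difference of Bmp4 was larger than its total RNA difference, but this test did not pass. No gene passed it (0% of 12358), and at an unadjusted p below 0.05 there were 0 of the 10 genes and 1.55% of all genes. The interaction was positive for 6 of the 10 genes and for 49.2% of all genes. For the 9 genes other than Bmp4 it lay between -0.30 (Stat3) and 0.36 (Id2), and each of their 95% intervals included 0.

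**Figure D3:**
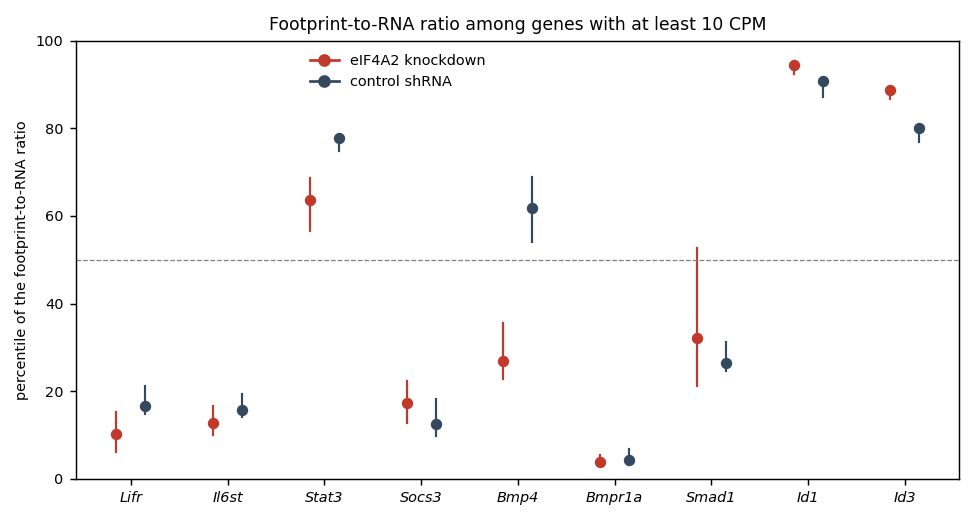
Percentile of the footprint-to-RNA ratio among 8019 genes with at least 10 CPM in both tables, red for knockdown and dark for control; points are the ratio of group means, and each line spans the 2 values of same-numbered libraries. Bmp4 stands at 26.9 in the knockdown and 61.9 in the control, while Bmpr1a is at most at 6.7 and Id1 at least at 87.2 in every pair. Id2 had under 10 CPM and is not shown.

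Genes of the same pathways outside these 10 came from 8 lists with 78 genes in all, also chosen with earlier results of these data known. None of these genes passed limma's threshold in footprints (68 tested), total RNA (69) or translational efficiency (68). At an unadjusted p below 0.05 there were 16 in footprints, 17 in total RNA and 1 in translational efficiency, where 12.9%, 14.9% and 1.55% of all genes were. A positive log2 fold change was found for 40, 42 and 33 of them in the same order, where 50.6%, 49.7% and 49.2% of all genes had one. SMADs and their regulators had the highest median of the lists in footprints, with 10 of 12 tested genes positive in each assay and medians of 0.39 in footprints and 0.20 in total RNA. Smad6, an inhibitory SMAD that BMP signalling itself induces, had footprints of 6.98 and 6.28 CPM in the knockdown, against 3.51 and 2.18 CPM in the control. Its total RNA was 7.66 and 8.27 CPM in the knockdown, against 3.43 and 3.88 CPM in the control, with log2 fold changes of 1.01 ± 0.31 and 0.95 ± 0.19 (adjusted p = 0.248 and 0.122 by limma). Smad5, the close relative of Smad1, had 0.67 ± 0.22 in footprints and 0.53 ± 0.17 in total RNA. The common partner Smad4 had 0.33 ± 0.17 and 0.14 ± 0.14. All 3 were higher in the knockdown without overlap in both assays, as were 12.3% of all genes tested in both, and Smad6 was named for a small p within its list. In the authors' deposited table Smad6 is higher in total RNA with an FDR of 0.0101, where 5.4% of genes are called. Its deposited footprint FDR is 0.209.

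Among BMP ligands and antagonists 7 of 8 tested genes were positive in footprints (median 0.31) and 5 of 8 in total RNA (median 0.13). Bmp1, a protease that releases BMPs from their antagonists, had 0.69 ± 0.28 in footprints and 0.64 ± 0.18 in total RNA. The ligand Bmp8b had 0.51 ± 0.32 and 0.39 ± 0.23. In footprints Bmp4 thus lay on the other side of 0 from most of this mixed list. In total RNA Fst (-0.55), Gdf3 (-0.11) and Twsg1 (-0.10) lay below 0 as Bmp4 did. Over all genes 50.6% were positive in footprints and 49.7% in total RNA. Of the receptor list 5 of 8 were positive in footprints and 5 of 9 in total RNA. The type II receptor Bmpr2 had 0.26 ± 0.29 and 0.31 ± 0.26 and the co-receptor Rgmb 0.30 ± 0.30 and 0.54 ± 0.27. The decoy receptor Bambi had -0.71 ± 0.27 in footprints and -0.36 ± 0.32 in total RNA. The receptor Acvrl1, with 8 to 45 footprint reads per library, had -0.98 ± 0.44 and -0.68 ± 0.28.

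BMP targets and partners of the ID proteins were mixed, with 4 of 9 positive in footprints (median -0.09) and 5 of 9 in total RNA (median 0.04). Dusp9, an ERK phosphatase that BMP induces in mouse stem cells, had 0.27 ± 0.18 in footprints and 0.64 ± 0.15 in total RNA. By the authors' deposited FDR Dusp9 is higher in total RNA (0.0298) but is not called in footprints (0.769). Tcf12, an E protein that ID proteins bind, had 0.49 ± 0.20 and 0.64 ± 0.23. Hes1, a repressor of basic helix-loop-helix genes, had -0.72 ± 0.19 and -0.59 ± 0.18, with footprints of 23.0 and 20.4 CPM in the knockdown, against 36.5 and 36.3 CPM in the control.

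On the LIF side the targets split. Pim1, a kinase induced by STAT3, had footprints of 124 and 140 CPM in the knockdown, against 82.0 and 76.2 CPM in the control, with a log2 fold change of 0.73 ± 0.16 there and of 0.65 ± 0.15 in total RNA (adjusted p = 0.14 and 0.143 by limma). Klf4, a pluripotency factor downstream of STAT3, had total RNA of 79.4 and 80.1 CPM in the knockdown, against 157 and 112 CPM in the control (-0.73 ± 0.19, adjusted p = 0.175), while its footprints overlapped (-0.42 ± 0.29). Tfcp2l1, another STAT3 target of the naive state, had -0.77 ± 0.23 in total RNA and -0.56 ± 0.35 in footprints, where knockdown 1 (185 CPM) lay above and knockdown 2 (75.1 CPM) below the controls (176 and 172 CPM). Klf5 had -0.71 ± 0.21 in footprints and -0.24 ± 0.25 in total RNA. Myc (0.57 ± 0.21 and 0.99 ± 0.31) and Junb (0.75 ± 0.23 and 0.53 ± 0.29), which were picked after their values were seen, had the highest positive values of the list in total RNA and in footprints. Of 10 tested targets 5 were positive in footprints (median -0.01) and 6 in total RNA (median 0.22). In the authors' deposited table Pim1 is higher in total RNA with an FDR of 0.0339, while Klf4 (FDR 0.0174) and Tfcp2l1 (log2 fold change -0.81, FDR 0.0216) are lower.

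Upstream of STAT3, kinases, STATs and adaptors were positive in 2 of 9 cases in footprints and 5 of 9 in total RNA. The kinase Jak1 had -0.20 ± 0.22 and 0.04 ± 0.13, the phosphatase Ptpn11 that links the receptor to ERK had 0.51 ± 0.18 and 0.40 ± 0.14, and Stat5a, with 11 to 27 footprint reads per library, had -0.65 ± 0.32 and -0.54 ± 0.20. Of 7 inhibitors 3 were positive in each assay, with Ptpn6 at -0.48 ± 0.22 and -0.34 ± 0.20, Ptpn2 at -0.29 ± 0.22 and -0.08 ± 0.19, and Socs2 at 0.36 ± 0.47 and 0.37 ± 0.13. Of 5 tested ligands and receptors, the receptor Cntfr of the same cytokine family had 13.3 and 15.3 CPM of footprints in the knockdown, against 7.12 and 8.82 CPM in the control (0.77 ± 0.25, and 1.08 ± 0.32 in total RNA). By the authors' deposited FDR Cntfr is higher in total RNA (0.0216) but is not called in footprints (0.224). Il11ra1 (0.24 ± 0.33 and -0.28 ± 0.21) and Ctf1 (-0.08 ± 0.43 and 0.50 ± 0.22) had few reads.

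**Figure D4:**
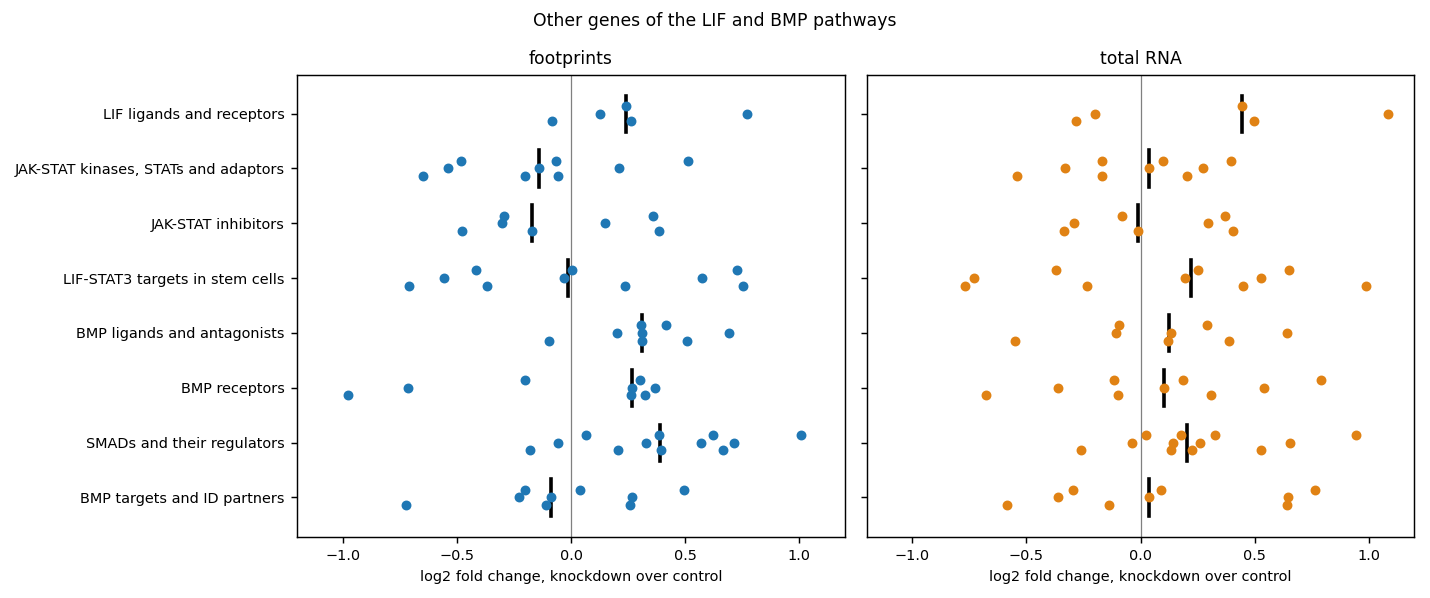
Log2 fold change of knockdown over control for the other genes of both pathways, 1 point a gene, footprints left and total RNA right; black bars are list medians. SMADs and their regulators lie mostly above 0 (medians 0.39 and 0.20), while LIF-STAT3 targets spread to both sides (medians -0.01 and 0.22).

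Across the 8 libraries, with each assay centred on its own mean, Id1 and Id3 went together (Pearson r = 0.94), and Bmp4 went against Bmpr1a (-0.89), Id3 (-0.84) and Il6st (-0.72). Socs3 followed neither Stat3 (0.29) nor Id1 (0.41) closely. Over 8019 genes with at least 10 CPM in both tables, the genes most like Socs3 were Selenof (0.983), Akirin1 (0.968) and Hist3h2ba (0.964), and those most like Id1 were Pick1 (0.984), Syce1 (0.978) and Abcb6 (0.977). Each r is over 8 libraries that share arm, assay and preparation, among them the same 2 controls per assay, and is a description.

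The knockdown footprint libraries held 7947827 and 9573832 reads, against 9458103 and 10682677 reads for their controls, and the knockdown total RNA libraries held 12228408 and 12840349 reads, against 8564582 and 9489221 reads for theirs. Eif4a2, the targeted gene, had footprints of 311 and 153 CPM in the knockdown, against 395 and 409 CPM in the control (57.8% of control), and total RNA of 583 and 617 CPM in the knockdown, against 739 and 969 CPM in the control (70.3%). Its footprints in knockdown 2 were well below those in knockdown 1, and by limma the adjusted p was 0.273 for footprints and 0.29 for total RNA. All 10 embryonic stem cell markers, among them Zfp42, were in both tables, and beside the footprint sums given with Bmp4 their summed total RNA was 5604 to 5646 CPM in the knockdown, against 6790 to 7500 CPM in the control. Of 9 fibroblast markers 4 were in the tables (Col3a1, Postn, Dcn, Lum and Twist2 were not), with Thy1 among them and summed footprints of 19.7 to 21.0 CPM in the knockdown, against 20.2 to 27.0 CPM in the control. Neural markers (3 of 6 in the tables, led by Tubb3, with Sox1 and Neurog2 among those in neither table) summed to 194 to 231 CPM of footprints in the knockdown, against 149 to 193 CPM in the control, and in total RNA to 171 to 173 CPM in the knockdown, against 123 to 131 CPM in the control. Trophoblast markers (4 of 6 in the footprint table, led by Tfap2c, without Cdx2 and Elf5) summed to 122 to 130 CPM of footprints in the knockdown, against 94.5 to 115 CPM in the control. Endoderm markers (5 of 7 in the footprint table, without Foxa2 and Afp) and mesoderm markers (3 of 7, without T, Mixl1, Mesp1 and Foxf1a) summed to 12.0 to 18.8 and 5.96 to 8.37 CPM of footprints in the knockdown, and to 15.4 to 18.7 and 4.25 to 5.25 CPM in the control. In total RNA the fibroblast sum was 12.3 to 13.2 CPM in the knockdown, against 14.4 to 21.7 CPM in the control, and the mesoderm sum overlapped, at 4.26 to 4.43 CPM in the knockdown, against 3.99 to 4.80 CPM in the control. The trophoblast sum in total RNA was 85.8 to 93.4 CPM in the knockdown, against 78.8 to 79.8 CPM in the control. There 2 of 3 tested trophoblast genes were positive, and 4 of 4 in footprints. All 3 tested neural genes were positive in each assay, but Tubb3 overlapped in footprints. The stem cell sum was lower in the knockdown without overlap in both assays. The neural and trophoblast sums were higher without overlap in both, the neural footprint groups by under 1 CPM. Of single genes 12.3% were higher without overlap in both assays and 12.4% lower. The part of these sums in the differences of the 10 genes was not tested.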

How the data were processed

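Ribosome footprints and total RNA of 4 libraries each were deposited as 2 tables. The authors deposited a signal per gene on the CPM scale, log2 fold changes, p-values and a likelihood ratio score (per the file headers); columns sum to 894269 to 1058777. Without roles, the submitters' processing notes list the build mm9, edgeR 3.26.8, HTSeq 0.11.2, Bowtie 1.2.3 and TopHat2 2.1.1. Per the labels' protocols, libraries were made with Illumina's TruSeq Ribo Profile reagents after rRNA removal.

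1 read was worth 0.0751 to 0.114 CPM, and 100% of values were whole multiples of it, within 0.01 read. Genes were kept by edgeR's expression filter (minimum count 10, total 15) on these reads. log2(CPM + 1) was tested with limma 3.58.1 (R 4.3.3, trended prior), and translational efficiency as an interaction over 8 libraries, with Benjamini-Hochberg adjustment over all genes at 0.05. As alternatives on reads, edgeR 4.0.16 and DESeq2 1.42.0 were run for total RNA, and edgeR for footprints without control 2. In that control library 1 read is worth 0.0991 CPM, close to a round decimal step, and it was left out on that ground alone. Its values were whole multiples of 0.0991 CPM (100%), and its reads given here rest on that value. The labels call the libraries biological replicates but give no cultures, so p-values rest on the spread between these libraries. Within 1 assay a gene's own spread gives 2 degrees of freedom, of 8.625 in footprints and 5.981 in total RNA. The rest come from limma's prior, which is drawn from all genes.

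Named genes were the 10 genes, Eif4a2, the 2 genes of smallest p per list and assay, a few fixed pathway genes (Klf4, Tfcp2l1, Jak1, Bmpr2, Smad5, Smad4), the genes most like Socs3 and Id1, and the most abundant gene of each marker list. The 10 genes and the lists were chosen with earlier results of these data known. Listed genes in neither table, among them Osmr, Il6, Pramel7, Bmp2, Nog, Smad9 and Msx1, were not analysed here. Promoter windows are RefSeq's. Levels were not compared between genes, except as ranks of the footprint-to-RNA ratio, without a correction for length.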

Additional observations from a re-analysis of the deposited data

How the results depend on the processing

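No gene passed in the 3 comparisons as fitted. In footprints 21 genes passed with a replicate block, 21 with columns rescaled to a common sum, 89 with all 8 libraries in 1 model, 3 by edgeR without control 2, and 1 to 57 with 1 library left out. In total RNA 636 passed with a replicate block, 924 with the crossed pairing (chosen after seeing the data), 97 with all 8 libraries, 272 by DESeq2, 0 by edgeR, and 34 to 6188 with 1 library left out (61 and 34 without knockdown 1 and 2, 6188 and 3411 without control 1 and 2). For translational efficiency 0 or 1 passed with 1 library left out. With the block Bmp4 passed in total RNA (limma adjusted p = 0.0447). The labels do not tie replicate numbers to shared cultures. The log2 difference between libraries 1 and 2 was taken in each arm, for genes with a mean of at least 10 CPM. Over these genes the knockdown and control differences correlated at 0.231 in footprints and -0.275 in total RNA. The cause of the shifts in the number of genes passing was not tested.

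Of 370 values of the 10 genes under alternatives, 336 kept direction and side of the threshold, 12 passed it and 22 turned sign. Rescaling turned Lifr to 0.0939 in footprints and Il6st to 0.00271 in translational efficiency, and moved the median of all footprint genes by 0.113. edgeR without footprint control 2 gave 0.051 for Lifr and -0.0168 for Il6st. With 1 library left out, footprint values by limma ran from -0.102 to 0.0443 for Lifr, -0.0213 to 0.176 for Il6st and -0.165 to 0.319 for Socs3, and total RNA values from -0.486 to 0.248 for Socs3 and -0.00915 to 0.368 for Smad1. Translational efficiency ran from -0.146 to 0.0513 for Il6st, -0.171 to 0.564 for Socs3, -0.0845 to 0.293 for Smad1, -0.153 to 0.329 for Id1 and -0.126 to 0.848 for Id2. Without a minimum CPM the control percentiles of the footprint-to-RNA ratio were 22.6 for Lifr, 21.4 for Il6st, 7.41 for Bmpr1a and 32.7 for Smad1. Low reads limit Id2, with 38 to 98 footprint reads per library.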
